A study of Bos indicus and Bos taurus with 17 samples.

Results

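In epithelial cells collected from the milk of 2 cattle breeds, 9 genes of the interferon response were followed over lactation. They comprised the antiviral effectors ISG15, MX1, MX2, IFI6 and RSAD2, the RNA sensor IFIH1, and the transcription factors STAT2, IRF1 and IRF7. They were taken by name from the table of gene expression, which held 61264 entries, of which 25121 carried a gene name and which gave 21631 distinct names. All 9 genes were found. IRF1 was carried by 2 entries, of which the one with the higher mean was used. The other entry had a different pattern, given below. MX1 was spelled Mx1 in the table.

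The cells were captured from fresh milk with magnetic beads coated with an antibody to KRT18, a keratin of the secretory epithelium, and their polyadenylated RNA was sequenced. Milk came from Kashmiri cattle, a local breed not improved for milk production, and from Jersey cattle, a dairy breed, on day 15 of milking (D15), on day 90 (D90) and on day 250 (D250), with no treatment. Per the labels there were 17 samples, 3 a group except for Jersey cattle at D90 with 2, from cows that the labels place in lactation 2 or 3 and whose ages were not stated. The methods describe 3 cows of each breed in lactation 3, milked at every stage, whereas the labels mix lactations 2 and 3 and give Jersey cattle 1 sample of lactation 3 at D15 and none at D250. Whether the stages share animals is therefore uncertain. A stage had 1 month (March, July or December) in all of its samples, so stage and season cannot be told apart. The values were the FPKM of the authors, that is, sequenced fragments scaled to transcript length and to the mapped reads of a library, with a single value in each of the 6 combinations of breed and stage. There was no value per cow, so no error could be given and no test made, and the table gives no read counts behind the values. All differences compare group values only, and the levels of a gene are listed in the order D15, D90 and D250 unless stated otherwise. Neighbours in an order of levels could not be separated by their spread. Fewer cells of a type and less RNA per cell cannot be told apart in these bulk samples.

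Interferons are secreted signals of antiviral defence. Type I interferons bind IFNAR1 and IFNAR2, whose kinases JAK1 and TYK2 activate STAT2. A complex that holds STAT2 and IRF9 then switches on genes such as ISG15, MX1 and RSAD2, while interferon gamma acts through IFNGR1, IFNGR2, JAK1 and JAK2 and induces IRF1. IFIH1 senses viral RNA in the cytosol, and IRF7 drives the production of type I interferon.

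ISG15 encodes a ubiquitin-like protein that is conjugated to other proteins during the interferon response, and it had the highest level of the 9 genes in every group. Its level was 545, 248 and 113 FPKM in Kashmiri cattle. In Jersey cattle it was 4494, 1373 and 549.6 FPKM. Every Jersey group was thus above every Kashmiri group, and in both breeds the level was lower at each later stage. ISG15 made up 82.4% of the summed FPKM of the 9 genes in Jersey cattle at D15 and 41.0% at D250, and 68.5% and 42.3% in Kashmiri cattle.

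IFI6, a small mitochondrial protein that restrains apoptosis and virus replication, had 67.3, 85.9 and 24.7 FPKM in Kashmiri cattle. In Jersey cattle it had 327, 95.0 and 22.7 FPKM. Only Jersey cattle at D15 stood clear of the other groups, and at D90 and D250 the values of the breeds lay close together.

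RSAD2 (viperin), an enzyme that makes a chain-terminating nucleotide against viral polymerases, was between 8.30 and 10.2 FPKM at all stages in Kashmiri cattle. In Jersey cattle it was 62.4, 10.6 and 6.09 FPKM. Its high value was again that of Jersey cattle at D15.

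The MX genes, which lie next to each other in the RefSeq gene order of a cattle assembly, encode dynamin-like GTPases that block viral nucleoproteins, and they did not share a pattern. MX1 lay between 25.4 and 30.4 FPKM in Kashmiri cattle. In Jersey cattle it was 136, 77.7 and 18.8 FPKM, so the Jersey value was the highest of all groups at D15 and the lowest at D250. MX2 was 1.67, 4.35 and 5.67 FPKM in Kashmiri cattle, against 28.8, 27.6 and 16.7 FPKM in Jersey cattle. It was the lowest of the 9 genes in the Kashmiri groups, was higher at each later stage there and lower at each later stage in Jersey cattle.

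The factors and the sensor behaved differently. IRF1, a transcription factor induced by interferon gamma, had 56.9, 77.2 and 39.4 FPKM in Kashmiri cattle. In Jersey cattle it had 159, 387 and 474 FPKM. The IRF1 entry not used had a mean of 8.09 FPKM and was lower in Jersey cattle at D15 and D90. At D90 that entry had 3.23 FPKM in Jersey and 11.65 FPKM in Kashmiri cattle, and at D250 5.91 and 5.53 FPKM. Within Jersey cattle it was lower at D250 than at D15. What is said of IRF1 thus holds for the entry used only. STAT2, a transcription factor of type I interferon signalling, was 8.63, 9.66 and 11.9 FPKM in Kashmiri cattle, against 22.7, 17.6 and 59.1 FPKM in Jersey cattle. IFIH1 (MDA5) was 6.85, 10.9 and 7.35 FPKM in Kashmiri cattle, against 21.4, 24.2 and 82.2 FPKM in Jersey cattle. For these 3 genes the highest value was that of Jersey cattle at D250, where the effectors ISG15, IFI6, RSAD2 and MX1 had their lowest Jersey values. IRF7 followed the order of ISG15, with 71.4, 59.4 and 31.0 FPKM in Kashmiri cattle, against 199, 119 and 111 FPKM in Jersey cattle.

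**Figure D1:**
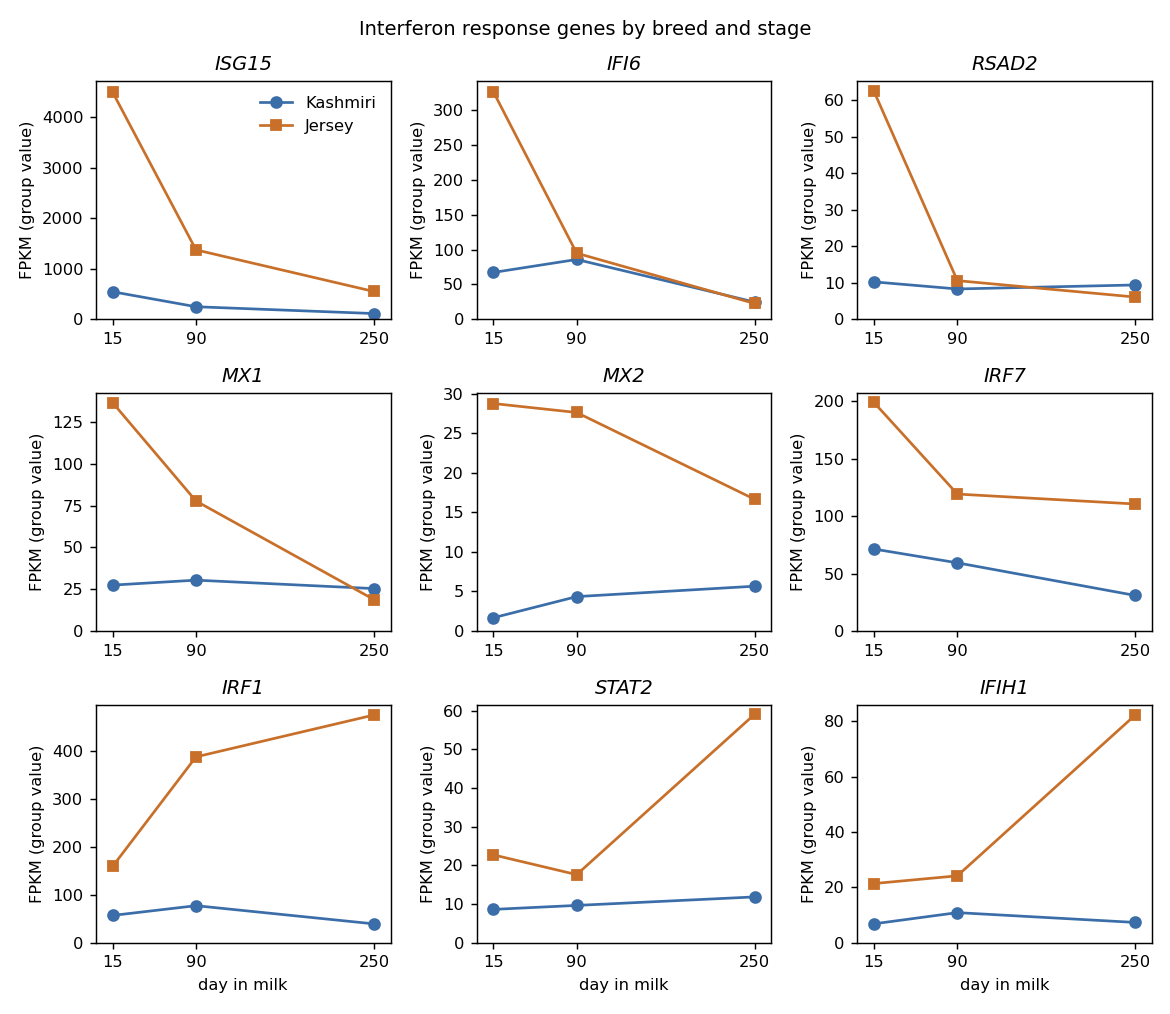
FPKM of each of the 9 genes (vertical axes, starting at 0 and with their own scale) against the day in milk, with 1 group value per point, circles for Kashmiri and squares for Jersey cattle, and lines joining the stages of a breed. ISG15, IFI6, RSAD2 and MX1 were highest in Jersey cattle at D15, whereas IRF1, STAT2 and IFIH1 were highest in Jersey cattle at D250.

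To compare groups, log2 ratios were taken after adding 1 FPKM to each value, and genes that reached 1 FPKM in one of the groups were compared. A gene was past the limit when the size of its log2 ratio was 2 or more, which is a 4-fold difference. The share of all named genes past this limit is given beside each count as its background.

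At D15, all 9 genes were higher in Jersey than in Kashmiri cattle, and 5 of 9 were past the limit, against 6.45% of the 11202 named genes compared. The median log2 ratio (Jersey over Kashmiri) of the 9 genes was 2.26, and that of all genes compared was -0.13. The 5 genes were MX2 (log2 ratio 3.48), ISG15 (log2 ratio 3.04), RSAD2 (log2 ratio 2.497), MX1 (log2 ratio 2.27) and IFI6 (log2 ratio 2.26), that is, all effectors of the set. The remaining 4 had log2 ratios from 1.30 (STAT2) to 1.51 (IFIH1).

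At D90 the 9 genes were again all higher in Jersey cattle, but 3 of 9 were past the limit, against 6.58% of all genes. These were ISG15 (log2 ratio 2.46), MX2 (log2 ratio 2.42) and IRF1 (log2 ratio 2.31). IFI6 (log2 ratio 0.14) and RSAD2 (log2 ratio 0.32) were at nearly the same level in both breeds. The median was 1.08, and that of all genes -0.03.

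At D250, 6 genes were higher and 3 lower in Jersey cattle. Past the limit were 4 of 9 genes, all higher in Jersey cattle, against 10.9% of all genes. IRF1 had the largest log2 ratio (3.56), before IFIH1 (3.32), ISG15 (2.27) and STAT2 (2.22). MX1, IFI6 and RSAD2 had log2 ratios of -0.41, -0.12 and -0.55. The median was 1.80 and that of all genes -0.10. With FPKM rescaled by the upper quartile or to the summed FPKM, IRF1 and IFIH1 stayed past the limit at D250, while ISG15 (1.77 and 1.49) and STAT2 (1.75 and 1.48) did not, and the median was 1.31 and 1.04. Without rescaling, ISG15 was the only member past the limit on all 3 days.

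For 6 of the 9 genes (ISG15, MX2, IFIH1, STAT2, IRF1 and IRF7) the lowest Jersey group was above the highest Kashmiri group. For ISG15 this rested on nearly equal values (549.6 and 545 FPKM), whose order turns with the upper quartile. Over the named genes that reached 1 FPKM anywhere this held for 15.2%, and the opposite order, which none of the 9 genes had, held for 11.0%.

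Within Jersey cattle, ISG15, MX1, IFI6 and RSAD2 were past the limit between D15 and D250, each lower at D250, whereas 3.42% of all genes were lower past this limit. The log2 ratio of D250 over D15 was -3.79 for IFI6, -3.16 for RSAD2, -3.03 for ISG15 and -2.79 for MX1. In the plain FPKM, these were ratios of D15 over D250 of 14.4, 10.3, 8.18 and 7.25. In the same comparison IFIH1, IRF1 and STAT2 were higher at D250, with log2 ratios of 1.89, 1.57 and 1.34, none past the limit. MX2 and IRF7 had log2 ratios of -0.75 and -0.84. The median of the 9 genes was -0.84, and became -1.82 without IRF1, while that of all genes was 0.07.

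The lower Jersey levels were reached at different stages. Between D15 and D90, 1 of 9 genes, RSAD2, was past the limit (log2 ratio -2.45), where 3.78% of all genes were lower past it. IFI6 (log2 ratio -1.77) and ISG15 (log2 ratio -1.71) came next. Between D90 and D250, 1 of 9 genes, IFI6, was past the limit (log2 ratio -2.02), where 0.466% of all genes were lower past it. MX1 was just inside it with -1.99, and passed it with a pseudocount of 0.1 FPKM or none and under either rescaling. IFIH1 and STAT2 differed mostly over this later interval, with log2 ratios of 1.73 and 1.69, after 0.17 and -0.35 over the earlier one. IRF1 differed mostly over the earlier interval, with log2 ratios of 1.28 for D90 over D15 and 0.29 for D250 over D90.

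In Kashmiri cattle the highest level over the stages was between 1.20-fold (MX1) and 4.81-fold (ISG15) the lowest, and in Jersey cattle between 1.73-fold (MX2) and 14.4-fold (IFI6). For MX2 (3.39-fold) and IRF7 (2.30-fold against 1.80-fold) the Kashmiri span was the wider one. No member was past the limit between D15 and D90 or between D90 and D250, where 7.5% and 1.98% of all genes were past it in either direction. Between D15 and D250, 1 of 9 genes, ISG15, was past the limit (log2 ratio -2.26), where 2.2% of all genes were lower past it. With FPKM rescaled by the upper quartile ISG15 was just inside it (-1.99), and with the summed FPKM it had -1.30, while MX2 passed it (2.05). For D250 over D15, IFI6 had -1.41, IRF7 -1.18 and MX2 1.32 on the log2 scale, and MX1 (-0.11), RSAD2 (-0.11) and IFIH1 (0.09) were close to 0. The median of the 9 genes was -0.11 and became 0.14 with the upper quartile and 0.77 with the summed FPKM. The median of all genes was -0.04, and 0.20 and 0.77 under the same rescalings, so no common direction of the 9 genes is given for Kashmiri cattle.

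With the limit set at 1 on the log2 scale, in either direction, 2 members were past it in Kashmiri cattle between D15 and D90 (33.5% of all genes), 2 between D90 and D250 (17.7%) and 4 between D15 and D250 (25.7%). In Jersey cattle it was 4 members (29.8%), 5 members (20.9%) and 7 members (42.4%) in the same order. Between the breeds it was 9 members at D15 (28.9%), 5 at D90 (32.9%) and 6 at D250 (34.5%).

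**Figure D2:**
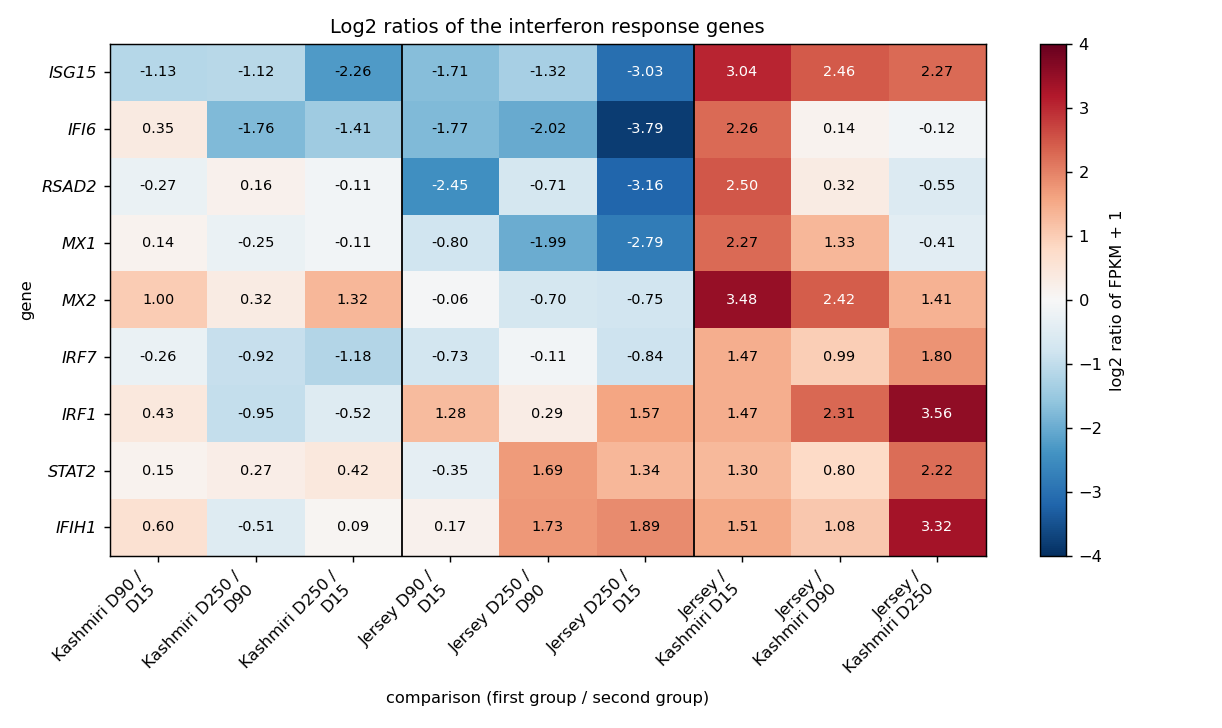
Log2 ratio of FPKM + 1 for the 9 genes (rows) in the 9 comparisons (columns, first group over second group), with the value printed in each cell and red for higher in the first group. The breed columns for D15 and D90 hold positive values only, and the Jersey columns separate ISG15, IFI6, RSAD2 and MX1 (lower at D250 than at D15) from IRF1, STAT2 and IFIH1 (higher).

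The comparisons share groups, so the high Jersey values at D15 enter both the breed ratio at D15 and the Jersey stage ratios. For MX2 the difference between D15 and D250 had opposite signs in the breeds (log2 ratio 1.32 in Kashmiri and -0.75 in Jersey cattle), as it had for IRF1 (-0.52 and 1.57). The sign for IRF1 in Kashmiri cattle turned to 0.42 with FPKM rescaled to the summed FPKM. Whether the breeds differed in these stage differences was not tested. Over the 6 groups, the Pearson correlation of log2(FPKM + 1) between members had a median of 0.66 over 36 pairs, with 31 above 0. The points share their groups, and the values describe these groups only. The pairs IFIH1 and STAT2 (0.96), IRF7 and ISG15 (0.96), IRF1 and IFIH1 (0.92) and IFI6 and MX1 (0.89) were among the most alike, and STAT2 and IFI6 (-0.19) the least.

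The genes around the 9 in the pathway were then described by role. Interferon ligands were nearly without signal. Of 21 names, 5 were found. IFNG was the only one with at least 1 FPKM in any group. IFNG, the gene of interferon gamma, had 1.84, 7.60 and 1.35 FPKM in Kashmiri cattle, against 0.510, 0.344 and 0.398 FPKM in Jersey cattle, so that Kashmiri cattle had the higher level at each stage. The type III interferon gene IL29 did not exceed 0.183 FPKM. Names of interferon alpha, beta and omega genes were not matched and were not analysed here.

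The 4 receptor chains of type I and type II interferon were past the limit in Jersey cattle between D15 and D250, each higher at D250, whereas 9.17% of all genes were higher past it. IFNAR1 had 25.4 and 183 FPKM, and IFNAR2 had 29.999 and 223 FPKM at D15 and D250. IFNGR1 had 126 and 549 FPKM, and IFNGR2, in an entry joined with a small nucleolar RNA, had 140.0 and 902 FPKM. The receptor levels were thus highest in the group where ISG15, IFI6, RSAD2 and MX1 were lowest among the Jersey groups.

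Of the signal transducers, JAK1, JAK2, TYK2 and STAT3 were also higher in Jersey cattle at D250 than at D15, past the limit, as 4 of the 5 found, against the same 9.17% of all genes. TYK2 had 11.9, 157 and 228 FPKM in Jersey cattle, and 3.47, 9.50 and 11.0 FPKM in Kashmiri cattle. IRF9, the DNA-binding partner of STAT2, differed little between D15 and D250 in Jersey cattle (179.9 and 205 FPKM, log2 ratio 0.19), and was past the limit between the breeds at D15 (log2 ratio 2.47) and D250 (log2 ratio 3.14).

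Of 6 other interferon regulatory factors found, 4 were higher in Jersey cattle at D15, 3 at D90 and 2 at D250. Higher past the limit was 1 of 6 on each day, IRF5, against 6.45%, 6.58% and 10.9% of all genes. IRF5, which acts downstream of Toll-like receptors, had 49.6, 95.9 and 100.02 FPKM in Jersey and 5.84, 12.7 and 19.3 FPKM in Kashmiri cattle. IRF3, the constitutive factor upstream of interferon beta, was alike in the breeds at D15, with 101 FPKM in Kashmiri and 105 FPKM in Jersey cattle. For both breeds it was lowest at D250. None of the 6 factors found was past the limit in Kashmiri cattle between stages. Of all genes, 7.5% (D15 to D90), 1.98% (D90 to D250) and 4.05% (D15 to D250) were past it in either direction, so this count is near the background.

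Among 11 nucleic acid sensors and their adaptors, DHX58 and TLR7 were past the limit at D15, both higher in Jersey cattle, where 6.45% of all genes were. DHX58 (LGP2), a helicase of the IFIH1 family, had 26.5, 20.5 and 10.4 FPKM in Jersey cattle and between 5.01 and 5.32 FPKM in Kashmiri cattle. DDX58 (RIG-I) was carried by 2 entries, and the one used, with the higher mean, is joined with TOPORS. It had 20.4, 22.2 and 44.0 FPKM in Jersey cattle and stayed between 8.56 and 12.02 FPKM in Kashmiri cattle. The 2 helicase entries thus differed in their Jersey stage pattern, DHX58 following the effectors and the joined DDX58 entry following IFIH1. The part of TOPORS in that entry is not known.

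The enzymes that conjugate ISG15 were higher in Jersey cattle at all stages, in 4 of 4 found. Of all genes, 43.3%, 48.5% and 46.2% were higher at D15, D90 and D250. Past the limit were 1 of 4 at D15, 0 at D90 and 2 at D250, against 6.45%, 6.58% and 10.9% of all genes. At D90 UBE2L6 was at nearly the same level in both breeds (log2 ratio 0.17). UBA7, the activating enzyme, had 53.5, 24.8 and 42.4 FPKM in Jersey cattle and 13.95, 12.1 and 8.55 FPKM in Kashmiri cattle. HERC5, a ligase, had 19.2, 19.3 and 29.8 FPKM and 3.87, 6.04 and 3.93 FPKM. While ISG15 itself was 8.18-fold lower in Jersey cattle at D250 than at D15, the log2 ratios of its 4 enzymes lay between -0.54 (UBE2L6) and 1.06 (HERC6).

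The other antiviral effectors gave 28 entries. At D15, 26 of 28 were higher in Jersey cattle and 10 were past the limit, all higher, against 6.45% of all genes. The median log2 ratio was 1.66, and that of all genes -0.13. At D90, 22 were higher and 6 past the limit, against 6.58% of all genes (median 1.05, all genes -0.03). At D250, 22 were higher and 10 past it, against 10.9% of all genes (median 1.73, all genes -0.10). The entry that joins IFIT1 and IFIT3, which bind foreign RNA, had 359, 197 and 459 FPKM in Jersey cattle and 31.2, 26.9 and 32.0 FPKM in Kashmiri cattle. IFITM3, which blocks virus entry, had 609, 368 and 606 FPKM and 115, 66.3 and 71.7 FPKM. IFITM1, in an entry joined with ATHL1, reached 1625 FPKM in Jersey cattle at D15, and ISG20, an exonuclease carried by 2 entries, 1029 FPKM at D250.

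Between D15 and D250 in Jersey cattle these effectors had no common direction, with 14 higher and 14 lower (median log2 ratio 0.02). Past the limit in either direction were 4 of 28 entries, a share near the 12.6% of all genes, and they are given as values only, named after these were seen. Lower at D250 were CMPK2 (17.9 and 1.26 FPKM, log2 ratio -3.06) and OAS2 (193 and 29.2 FPKM, log2 ratio -2.68). Higher were SAMD9 (8.07 and 68.2 FPKM, log2 ratio 2.93) and PARP9 (8.29 and 37.3 FPKM, log2 ratio 2.04). CMPK2, a nucleotide kinase that is the neighbour of RSAD2 in the RefSeq gene order, resembled RSAD2, with 3.15, 2.71 and 2.79 FPKM in Kashmiri cattle and 2.04 FPKM at D90 in Jersey cattle. OAS2, an activator of RNase L, went with MX1 and IFI6 in having a Jersey value close to that of Kashmiri cattle at D250 (29.2 and 25.8 FPKM).

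**Figure D3:**
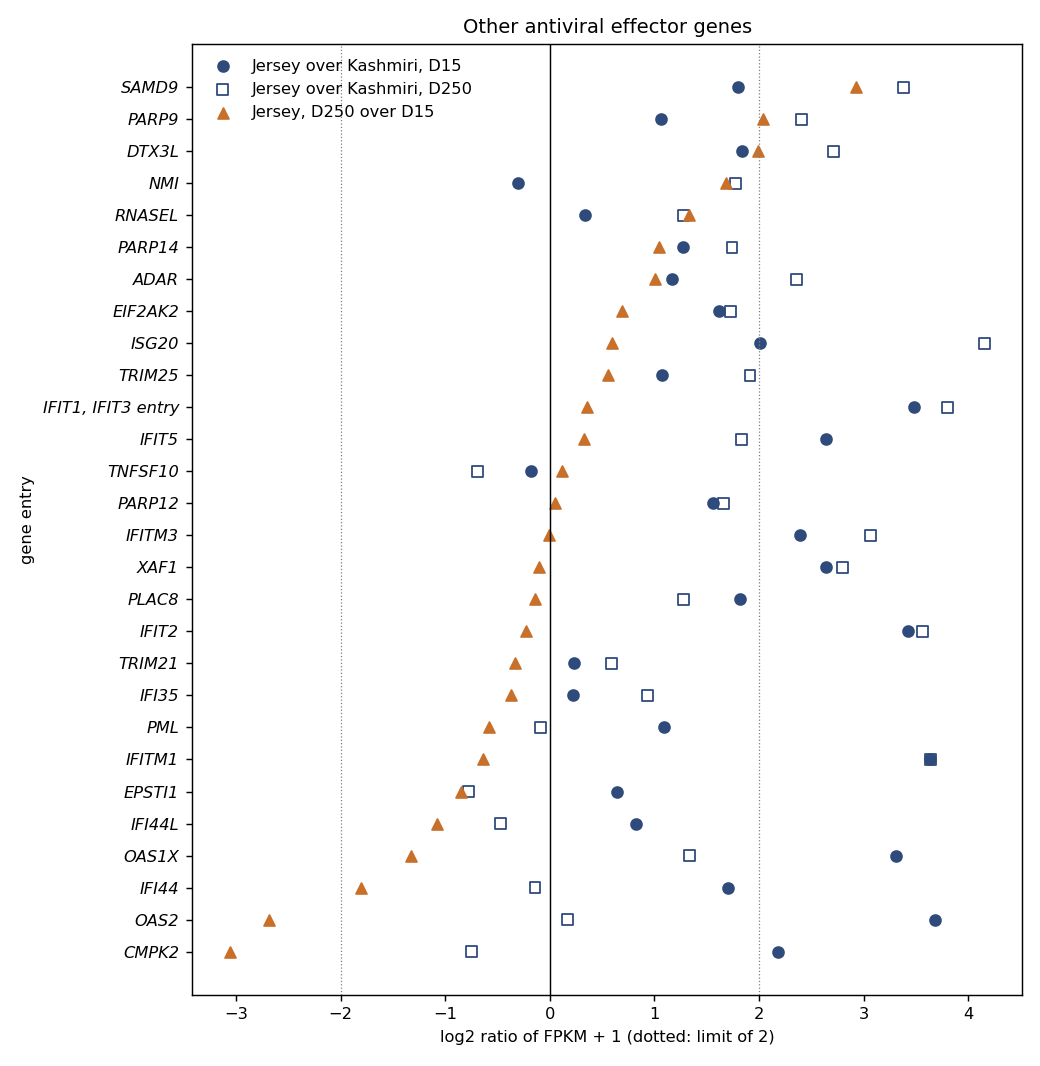
Log2 ratio of FPKM + 1 (horizontal axis, dotted lines at the limit of 2 in each direction) of 28 entries of other antiviral effectors (rows), with circles for Jersey over Kashmiri at D15, open squares for the same at D250 and triangles for D250 over D15 in Jersey cattle. Most breed ratios lie to the right of 0 at both stages, while the triangles run from -3.06 (CMPK2) to 2.93 (SAMD9).

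Of 16 genes classically induced by interferon gamma, 11 were higher and 5 lower in Jersey cattle at D15 (median log2 ratio 0.22, all genes -0.13), 7 higher and 9 lower at D90 (median -0.25, all genes -0.03) and 10 higher and 6 lower at D250 (median 0.56, all genes -0.10). Higher past the limit in Jersey cattle was 1 gene at D15 and 1 at D90, CD274 on both days, against 6.45% and 6.58% of all genes. At D250 it was 5 genes (GBP5, TAP1, TAPBP, NLRC5 and CD274, named after their values were seen), against 10.9% of all genes. Lower past the limit in Jersey cattle were CXCL10 at D15 and IDO1 at D90, also named after their values were seen, and none at D250. In either direction, 8.57%, 11.7% and 12.3% of all genes were past it at D15, D90 and D250. GBP5, a guanylate-binding GTPase, had 54.1 FPKM in Jersey and 7.37 FPKM in Kashmiri cattle at D250, and the peptide transporter gene TAP1 had 165 and 39.7 FPKM. PSMB8, a subunit of the immunoproteasome, had 606 FPKM in Kashmiri and 605 FPKM in Jersey cattle at D15. WARS, a tRNA synthetase, was lower in Jersey cattle at D15, with 261 against 625 FPKM. CD274 (PD-L1) had 29.7, 104 and 333 FPKM in Jersey cattle and 3.57, 6.88 and 16.2 FPKM in Kashmiri cattle. Of 8 negative regulators, 6 were higher in Jersey cattle at D15, 7 at D90 and 6 at D250 (median log2 ratios 0.77, 0.56 and 1.27). Higher past the limit were 2, 3 and 2, against 6.45%, 6.58% and 10.9% of all genes. SOCS3, an inhibitor of JAK kinases and past the limit on all 3 days, had 126, 110 and 874 FPKM in Jersey cattle and between 9.79 and 16.7 FPKM in Kashmiri cattle.

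The 8 genes whose profile over the 6 groups was most like the mean profile of the 9 members, among 3624 genes that reached 10 FPKM and had a span of at least 2 on the log2 scale, had Pearson correlations from 0.970 to 0.995. They included UNC93B1, the chaperone of endosomal Toll-like receptors, with 152, 125 and 104 FPKM in Jersey and 38.02, 44.9 and 30.03 FPKM in Kashmiri cattle. SLC35E4, ORAI2, FAM212A and ACVR2B were others, and 3 carried an Ensembl identifier only. The 8 genes were picked as the highest of 3624 over 6 points, so high correlations follow from the choice and are a description only. SLC35E4 (13.6 FPKM) and FAM212A (28.7 FPKM) reached 10 FPKM in Jersey cattle at D15 only, where the mean profile was highest. That profile averages members with unlike patterns.

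Markers of cell types differed between the breeds in both directions. KRT18, the keratin used for capture, had 51.3, 9.13 and 11.5 FPKM in Kashmiri cattle, against 33.7, 1.59 and 4.51 FPKM in Jersey cattle. Of 13 epithelial markers, CSN2 (beta casein) was listed at 0 in 5 groups, the casein gene CSN3 in 3 groups and LALBA in 2 groups, while the other 10 were above 0 in every group. The paper instead lists CSN2, CSN3 and LALBA among its most highly expressed genes in every group. The zeros conflict with those values and are not read as absent transcripts. The summed FPKM of 8 neutrophil markers was between 193 and 632 in Kashmiri and between 4894 and 15185 in Jersey cattle. All 8 markers were higher in Jersey cattle past the limit on all 3 days, against 6.45%, 6.58% and 10.9% of all genes at D15, D90 and D250. The sum of 12 macrophage markers was between 139 and 549.7 in Kashmiri and between 1234 and 2284 in Jersey cattle. That of 6 pan-leukocyte markers was between 627 and 1488 and between 1977 and 3643. Of these 6, 5 were higher in Jersey cattle at D15 and 6 at D250, but 3 were higher and 3 lower at D90 (median log2 ratio -0.05). Of the 11 macrophage markers compared, 11 were higher in Jersey cattle at D15 and at D90, but 7 were higher and 4 lower at D250 (median log2 ratio 0.18), where CD14 (636 FPKM) and CD68 (996 FPKM) made up most of the sum. The epithelial sum was 3.19-, 6.003- and 2.30-fold lower in Jersey cattle at D15, D90 and D250. This sum includes the milk protein genes that were listed at 0 in some groups. Of the epithelial markers compared, 9 of 11 were lower in Jersey cattle at D15, 10 of 13 at D90 and 11 of 11 at D250. The 3 higher at D90 included CSN2 and CSN3. The sum of 12 T and NK cell markers was 1.40-, 9.34- and 3.70-fold lower in Jersey cattle on these days. Of these markers, 10 of 12 were lower at D15 and 12 of 12 at D90 and at D250. The labelled epithelial cells therefore came with transcripts of leukocytes. The paper checked purity by qPCR at D90. It found KRT18 and CSN2 higher, and LSP1, HBA and CD18 lower, in the captured cells than in unsorted milk cells. From this the paper proposes that contamination was minimal. The part of the cell type markers in the breed differences was not tested.

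Over time in Jersey cattle, marker classes differed in both directions too. From D15 to D250 the neutrophil sum was 3.103-fold, the macrophage sum 1.63-fold and the pan-leukocyte sum 1.84-fold higher, while ISG15, IFI6, RSAD2 and MX1 were lower. IRF1, STAT2, IFIH1 and the receptor genes were higher over the same interval, as the neutrophil sum was. Among the macrophage markers, the complement genes C1QA (145 and 12.01 FPKM), C1QB (98.2 and 10.4 FPKM) and C1QC (144 and 6.80 FPKM) were lower at D250 past the limit, and were named after their values were seen. Of all genes, 3.42% were lower past it. Of the 11 macrophage markers compared, 6 were higher and 5 lower at D250 (median log2 ratio 0.29). CD68 was higher past the limit, where 9.17% of all genes were. Of the 12 epithelial markers compared, 4 were higher and 8 lower at D250 (median log2 ratio -1.11). Past the limit, 4 were lower and 1 was higher. The epithelial sum was 1.51-fold higher, and includes the milk protein genes listed at 0 in some groups. The T and NK cell sum was 2.99-fold lower, with 367 and 123 FPKM. In Kashmiri cattle at D90 this sum was 1940, against 515 at D15, in the group with the highest IFNG. The part of these markers in the stage differences was not tested. The sums of 9 B cell markers (9.84 to 85.4 FPKM) and of 4 red blood cell markers (0.0230 to 0.696 FPKM) were low in all groups. Of 8 plasmacytoid dendritic cell markers, 4 were found, 3 of which stood in other lists too, and the sum ran from 24.7 to 50.3 FPKM.

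**Figure D4:**
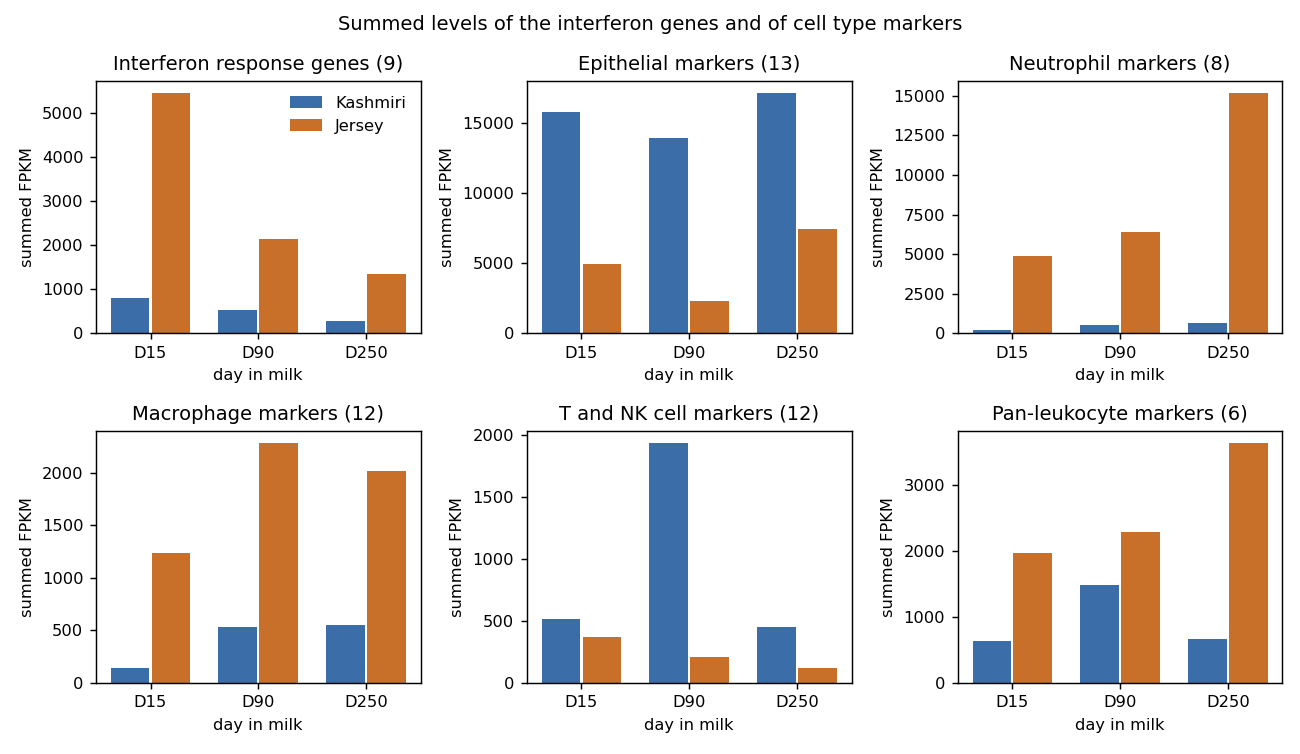
Summed FPKM (vertical axes from 0, each with its own scale) of the 9 interferon response genes and of the markers of 5 cell classes found in the table (number in each title) by day in milk, with 1 bar per group, blue for Kashmiri and orange for Jersey cattle. The interferon sum was highest in Jersey cattle at D15 (5451), the neutrophil sum in Jersey cattle at D250 (15185) and the T and NK cell sum in Kashmiri cattle at D90 (1940).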

How the data were processed

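RNA-seq of bead-captured milk epithelial cells was analysed for 6 groups of breed and stage. Reads had been cleaned by the authors (Trimmomatic), mapped with TopHat and Bowtie on UMD3.1, a bovine assembly, and passed to Cufflinks and Cuffdiff, and 1 FPKM value per gene and group was deposited. FPKM is scaled to all mapped reads, so a few abundant genes can shift all others. The columns named Local were taken as Kashmiri cattle. From the FPKM, log2 ratios with a pseudocount of 1 FPKM were computed for 9 comparisons, and a gene with 1 FPKM or more in one of the groups was counted when the size of its log2 ratio was 2 or more. Entries without a name (36143) were not used in ratios, and of entries sharing a name the one highest on average was kept. The milk protein genes were left out of the sum used for rescaling. Names were matched without regard to case, and a joined name by its parts. There are no replicates, intervals or tests.

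The members and lists were chosen with earlier results of these data known. Named were all members, up to 4 genes per list with the highest mean FPKM, IRF9, and the 8 most alike genes. Other genes were named after their values were seen. Gene order was taken from the RefSeq table of a Bos indicus assembly, which differs from the build used by the authors, and no coordinates were used. The alternatives were another pseudocount or none, no filter, a limit of 1, 2 rescalings, summed entries, and leaving out IRF1 or ISG15. The code was tested on simulated data and ran under Python 3.11.15 with pandas 2.3.3, numpy 2.4.6 and, for plots, matplotlib 3.10.9.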

Additional observations from a re-analysis of the deposited data

How the results depend on the processing

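The FPKM of a group rests on 2 or 3 samples whose own values were not analysed here, so the spread between cows and the depth are the main limits. No paired analysis was possible because the columns hold 1 value per group and carry no replicate numbers. For the same reason no sample was left out in turn.

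The number of members past the limit was within 1.5 times of the reported one in the comparisons and alternatives not named here. With a limit of 1 on the log2 scale it was 2 over the earlier interval, 2 over the later one and 4 over both in Kashmiri cattle, 4, 5 and 7 in the same order in Jersey cattle, and 9 at D15 and 5 at D90 between the breeds. Between D90 and D250 in Jersey cattle it was 2 with a pseudocount of 0.1, with no pseudocount and with either rescaling, because MX1 passed too. With either rescaling it was 2 between the breeds at D250. In Kashmiri cattle between D15 and D250 it was 0 with the upper quartile and, chosen after seeing the data, without ISG15.

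The median log2 ratio of the members moved with the rescaling to the summed FPKM to 0.073 between D90 and D250 and 0.77 between D15 and D250 in Kashmiri cattle, and to 1.04 between the breeds at D250. With the upper quartile it moved to 0.14 between D15 and D250 in Kashmiri cattle. Without IRF1, chosen after seeing the data, it was -1.82 for D250 over D15 in Jersey cattle. The cause of these differences was not tested. The rescaling to the summed FPKM moved the median of all genes most at D15 to D250 in Kashmiri cattle, from -0.04 to 0.77, and between the breeds at D250, from -0.10 to -0.75, where the members remained higher relative to it. Of the 81 ratios of single members, 9 changed sign under a rescaling, none of them past the limit.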
